A study of Homo sapiens with 9 samples.

Results

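Interleukins, chemokines and their receptors were followed over HEK293 cells that stably expressed MEK1 WT, MEK1 F53S or MEK1 K57N. Members were the array features whose gene name began with IL or with CCL, CXCL, CX3CL, CCR or CXCR, followed by a digit, in any of the scanner files. This rule gave 150 genes, measured by 204 probes, among the 38769 gene and transcript names and 50598 probes of the array. They were 43 interleukins, 41 interleukin receptors, 4 interleukin antagonists or binding proteins, 40 chemokines, 17 chemokine receptors, the enzyme IL4I1 and 4 antisense, divergent or pseudogene transcripts. The rule uses names and no measured value. Older names in the files were replaced by current ones, so that IL8 is CXCL8, CXCR7 is ACKR3, and IL28A, IL28B, IL29 and IL28RA are IFNL2, IFNL3, IFNL1 and IFNLR1.

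HEK293 is a line of human embryonic kidney cells. Each of the 3 lines carried an HA-tagged MEK1 from the vector pQCXIP, which was introduced by transfection and selected with puromycin, on top of the MEK1 that HEK293 cells make themselves. MEK1 F53S is a substitution found in RASopathies, congenital disorders of ERK signaling, and MEK1 K57N is found in cancers. RNA of each line was taken at steady state in 3 experiments, labeled with 1 dye and hybridized to 9 arrays. The labels name 1 line for each MEK1 form, so that other properties of a line and its mutation cannot be told apart, and p-values measure the spread between experiments with the same line. Lines without HA-MEK1 were not analysed here.

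Interleukins are secreted proteins by which cells, mostly of the immune system, signal to each other, and many bind receptors whose chains act through JAK kinases and STAT transcription factors, while IL-1 and IL-17 receptors act through adaptor proteins and NF-kB. Chemokines are small secreted proteins that attract cells through receptors coupled to G proteins. Epithelial and tumor cells can make several of them, and ERK signaling, through transcription factors of the AP-1 and ETS families, is among the inputs to some of their promoters.

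The promoters of 3 members that K57N cells expressed and WT cells expressed little or not at all are shown, as examples with and without an AP-1 match. They are the 250 bases before the transcription start in RefSeq, build GRCh38.p14, written 5′ to 3′ on the strand of the gene. Capitals mark matches, on either strand, of the AP-1 motif TGANTCA or of an NF-kB motif (GGG, any 5 bases, CC).
IL11, chr19:55370464-55370713, minus strand: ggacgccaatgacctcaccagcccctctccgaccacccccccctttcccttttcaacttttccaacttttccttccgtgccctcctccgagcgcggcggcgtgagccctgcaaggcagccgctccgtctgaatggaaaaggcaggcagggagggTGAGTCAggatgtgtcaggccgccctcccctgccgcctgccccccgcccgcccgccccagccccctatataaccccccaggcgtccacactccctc
CCL7, chr17:34269971-34270220, plus strand: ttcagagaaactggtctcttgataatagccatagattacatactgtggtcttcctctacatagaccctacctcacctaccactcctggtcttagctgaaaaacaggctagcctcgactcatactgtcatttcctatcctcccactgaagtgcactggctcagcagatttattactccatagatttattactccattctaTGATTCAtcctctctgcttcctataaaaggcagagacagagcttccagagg
IL7R, chr5:35856641-35856890, plus strand: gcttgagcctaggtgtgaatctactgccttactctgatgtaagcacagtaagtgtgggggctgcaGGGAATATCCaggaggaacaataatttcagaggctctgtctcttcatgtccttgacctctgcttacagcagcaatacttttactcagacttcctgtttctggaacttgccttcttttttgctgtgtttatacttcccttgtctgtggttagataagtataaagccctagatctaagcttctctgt
The IL11 promoter held 1 AP-1 match, which began 96 bases before the start, and the CCL7 promoter held 1, which began 51 bases before the start. The IL7R promoter held no AP-1 match and 1 NF-kB match. Of the 7 members called higher in K57N cells over WT cells, 6 had a promoter in the table, and IL13RA2 did not. An AP-1 match was present in 2 of these 6, against 6.6% of all 35116 promoters and 18.7% of the 75 promoters of 46 tested members. An NF-kB match was present in 4, against 54.4% and 58.7%, and the ETS core GGAA in 6, against 92.7% and 97.3%. The 75 hold more than 1 promoter for some genes, while the 6 are 1 for each gene. These matches are letters in a window and were not tested as binding sites.

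Signals are given as log2 of the processed signal relative to the 75th percentile of the array, so that 0 is the signal at that percentile and 1 unit is 2-fold. Levels of different probes are not comparable with each other. A probe is called read on an array where the scanner software placed it well above background, and it was tested if it was read on all 3 arrays of at least 1 line. Replicate 1 of each line was on slide 1 and replicates 2 and 3 were on slide 2. Slide 1 was dimmer, with between 23711 and 26110 probes read, against 27114 to 29319 on slide 2. A call required an adjusted p below 0.05 in limma (Benjamini-Hochberg over all probes tested) and more than 2-fold.

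MAP2K1, the gene of MEK1, had log2 signals of 2.37, 2.34 and 2.43 in WT cells, 2.52, 2.40 and 2.47 in F53S cells and 2.93, 2.82 and 2.84 in K57N cells. The K57N arrays lay above all others, by 0.49 ± 0.14 (SE) over WT (adjusted p = 0.127). The probe does not tell the HA-tagged copy from the cell's own, nor WT from mutant, so it does not check the labels. Of 14 transcripts known as outputs of ERK signaling, 12 were called higher in K57N cells against WT, with a median log2 difference of 2.96 against -0.05 over all genes tested. In F53S cells, 0 of the 14 were called (limma), with a median of 1.21. Of 7 HEK293 markers, 6 were read on the full set of arrays of every line. Leukocyte markers gave signal too: 8 of 14 were read on all WT arrays, 7 on all F53S arrays and 9 on all K57N arrays. PTPRC, which marks all leukocytes, had signals between -4.73 and -2.48, which overlapped between all lines, and 1 of the 14 was called higher in K57N cells: CD3D, a subunit of the T cell receptor complex, had -3.84, -4.37 and -4.19 in WT cells and 1.28, -1.16 and -1.03 in K57N cells (adjusted p = 0.0118). CD68, a marker of macrophages, lay 4.14-fold above WT in K57N cells without overlap, and was called with the slide as a block (adjusted p = 0.0877 without the block and 7.64e-05 with it). Other T cell markers did not rise with CD3D. CD3E, of the same complex, lay below WT in K57N cells without overlap (log2 difference -1.145, limma adjusted p = 0.746). CD3G, also of that complex, was read on 1 WT array and no K57N array. CD4 and CD8A overlapped between WT and K57N cells (log2 differences -0.15 and 0.18). Of the endothelial and fibroblast markers, 3 of 10 were read in each line and 0 were called in any comparison without a block (limma). With the slide block 1 of them, COL1A1, was lower in K57N than in WT cells by 1.19 on the log2 scale (adjusted p = 0.101 without the block and 0.00337 with it). The part of other cell types in the member signals was not tested.

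Of the 150 genes, 50 were read on all 3 WT arrays, 52 on all 3 F53S arrays and 55 on all 3 K57N arrays, or 33.3%, 34.7% and 36.7%, against 46.4%, 46.1% and 47.9% of all names on the array. By the software's weaker call, positive and significant against background, the counts were 82, 77 and 85. In WT, F53S and K57N cells, 22, 22 and 26 of 41 interleukin receptors and 8, 9 and 6 of 43 interleukins were read on all 3 arrays. For chemokines these counts were 10, 11 and 12 of 40, and for chemokine receptors 7 of 17 in each line. The differences between these groups were not tested. In total 58 members were tested, through 77 probes. Of the other 92, 52 were read on none of the 9 arrays.

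**Figure D1:**
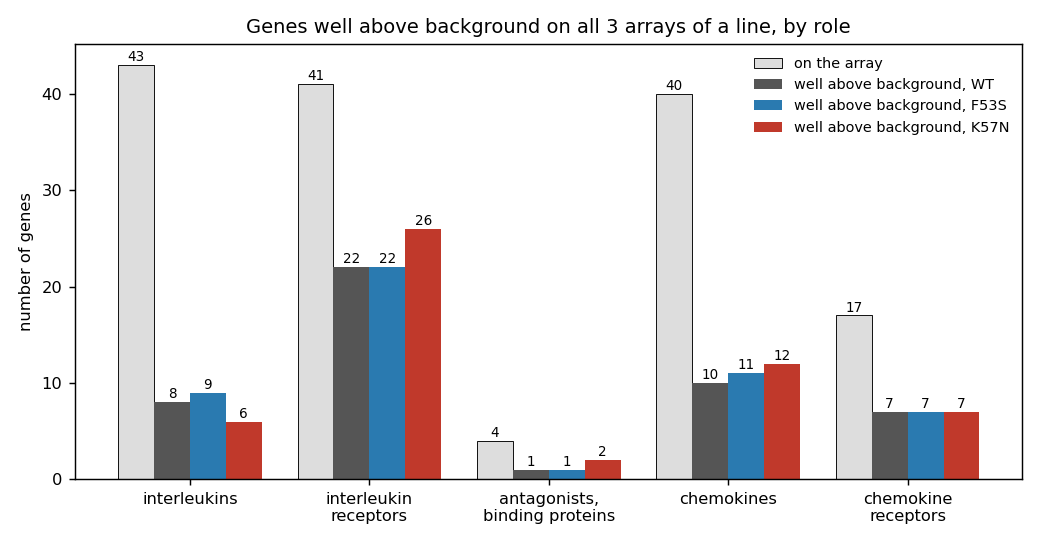
Number of genes in 5 groups of members (horizontal axis) that are on the array and that were read (well above background) on all 3 arrays of the WT, F53S and K57N lines (vertical axis: number of genes). Interleukin receptors were read in 22, 22 and 26 of 41 cases, interleukins in 8, 9 and 6 of 43.

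Several classical inflammatory cytokines were read on few arrays or on none. IL1A and IL1B, which encode the IL-1 cytokines that start fever and inflammation, were read on no array. IL6, a cytokine of the acute phase, was read on 1 of 3 arrays of each line, counting either of its 2 probes. CXCL8, the neutrophil attractant IL-8, was read on 1 F53S array and 1 K57N array through 1 of its 2 probes, with signals there between -7.08 and -4.24 over all 9 arrays. CXCL3, a close relative of CXCL1 and CXCL2, was read on 1 WT and 1 F53S array. These 5 genes were not tested, and a difference between lines in them was not detectable on these arrays.

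K57N cells stood apart from WT cells in 7 members, all higher: the cytokine IL11, the receptor genes IL13RA2, IL7R, IL4R, IL6R and IL27RA, and the chemokine CCL7. The 5 of them that were read on at least 1 WT array rose by between 2.49-fold (IL27RA) and 78.8-fold (IL11). No member was called lower without a block, and CXCL12 and IL32 were with the replicate number or the slide as a block. These are 7 and 0 of 58 tested members, while 1.51% of the 19274 genes tested were called higher and 0.69% lower. Of the 7, IL4R and IL27RA were read on all 9 arrays, and the other 5 were read on all arrays of K57N and not on all arrays of WT. With only probes read on all 9 arrays, 2 of 47 tested members were called higher, and 159 genes over the whole array. At an unadjusted p below 0.05, 13 members were higher and 3 were lower in limma, and 11 and 3 in the methods' t-test. Over all 19274 genes these counts were 1226 and 1312 in limma, and 1341 and 1261 in the methods' t-test. The median log2 difference of the tested members was 0.06, against -0.05 for all genes, and 48 of the 58 lay within 2-fold. Leaving out 1 array moved this median between -0.032, without K57N replicate 1, and 0.278, without WT replicate 1.

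IL11 encodes an IL-6 family cytokine that acts through IL11RA and the shared chain gp130. Its probe lies at chr19:55875788-55875847 in the hg19 annotation of the array. The log2 signals were -4.07, -4.39 and -4.04 in WT cells, -2.50, -3.04 and -2.94 in F53S cells, and 3.18, 1.51 and 1.70 in K57N cells. The 3 lines did not overlap, and the K57N arrays were the only ones above the 75th percentile. The probe was read on 2 of 3 WT arrays. The difference K57N minus WT was 6.30 ± 0.41 (SE; adjusted p = 0.000277), the smallest adjusted p of any member, and 4.67 with normexp background correction, which adds an offset to every signal.

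IL11 was also the member with the largest difference between F53S and WT cells. This difference was 1.34 ± 0.41 (SE), or 2.54-fold, with an unadjusted p of 0.0105 and an adjusted p of 1 in limma. The K57N signal exceeded that of F53S by 4.96 ± 0.41 (SE), or 31.0-fold (adjusted p = 0.00206). WT, F53S and K57N cells thus stood in rising order in IL11, in which the step between WT and F53S did not pass the test.

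IL13RA2 encodes a receptor that binds IL-13 with high affinity and is known as a decoy, since it lacks the signaling part of its relative IL13RA1. Its probe lies on chrX:114238591-114238650 (hg19). The signals were -5.89, -4.47 and -5.23 in WT cells, -5.78, -4.82 and -4.63 in F53S cells, and 0.23, -1.27 and -1.31 in K57N cells. WT and F53S arrays overlapped, and all K57N arrays lay more than 3 units above them. It was read on 1 WT array, 2 F53S arrays and all 3 K57N arrays. K57N exceeded WT by 4.42 ± 0.53 (SE), or 21.3-fold (adjusted p = 0.00436), and F53S by 4.29 ± 0.53, or 19.6-fold (adjusted p = 0.00857). With normexp the log2 difference to WT was 2.16 and was not called. IL13RA1, the signaling chain for IL-13, had signals between 2.69 and 2.96 over all 9 arrays, and K57N minus WT was 0.14 ± 0.15 (SE; adjusted p = 0.864).

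The genes whose signal followed that of IL13RA2 most closely over the 9 arrays were AREG, PAQR5, SLC20A1, PVR and PRDM8. Pearson's r was 0.997 for AREG, the EGF receptor ligand amphiregulin, 0.996 for PAQR5, 0.989 for SLC20A1, and 0.988 for PVR and PRDM8, the highest among 18566 genes read on all K57N arrays. The 9 arrays fall into K57N on one side and WT and F53S on the other, and share slides, so that these r values describe that contrast.

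IL4R encodes the chain that the receptors for IL-4 and IL-13 share, and it pairs with IL13RA1. It was read on every array, with signals of 1.51, 1.37 and 1.34 in WT cells, 1.88, 1.70 and 1.68 in F53S cells, and 3.62, 3.26 and 3.30 in K57N cells. The 3 lines did not overlap. K57N exceeded WT by 1.99 ± 0.16 (SE), or 3.96-fold (adjusted p = 0.000695), and F53S by 1.64 ± 0.16, or 3.12-fold (adjusted p = 0.0035). The difference between F53S and WT was 0.34 ± 0.16 (adjusted p = 1). The 2 other probes for IL4R were not tested, and neither was read on all 3 arrays of any line.

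IL7R encodes the alpha chain of the receptor for IL-7, a survival factor for lymphocytes. It had signals of -5.69, -5.87 and -6.99 in WT cells, -5.59, -7.01 and -5.20 in F53S cells, and -2.85, -2.55 and -2.18 in K57N cells. It was read on all K57N arrays and on no other. K57N was therefore at least 4.62-fold above WT (adjusted p = 0.00886) and at least 4.71-fold above F53S (adjusted p = 0.0206), where the signal of the dimmer line was set to the lowest one well above background on each array if its own was below that. The adjusted p values are from limma on the signals as measured, and the bounds themselves were not tested. With normexp the log2 difference to WT was 1.16 (adjusted p = 0.31), and the call was lost. Without K57N replicate 3 the adjusted p for K57N against WT was 0.0509, and against F53S it rose up to 0.107 when any 1 of the 3 K57N arrays was left out.

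IL6R and IL27RA are the ligand-binding chains for IL-6 and IL-27, and both signal with gp130. IL6R had signals of -3.98, -4.05 and -3.39 in WT cells, -4.22, -3.41 and -3.94 in F53S cells, and -1.76, -2.14 and -2.09 in K57N cells. It was read on 2 WT arrays, 2 F53S arrays and all 3 K57N arrays. K57N exceeded WT by 1.81 ± 0.27 (SE), or 3.50-fold (adjusted p = 0.0114), and F53S by 3.62-fold (adjusted p = 0.0176). With normexp the log2 difference to WT was 0.86 (adjusted p = 0.302), under 2-fold. A different IL6R probe gave a log2 difference of 2.06 to WT with an adjusted p of 0.104. Leaving out WT replicate 2, K57N replicate 1 or K57N replicate 3 took the adjusted p of the first probe against WT up to 0.0571, and leaving out F53S replicate 3 or any K57N array took that against F53S up to 0.0928.

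IL27RA had signals of -1.43, -1.41 and -1.68 in WT cells, -1.31, -1.32 and -1.34 in F53S cells, and -0.24, -0.18 and -0.15 in K57N cells. It was read on all 9 arrays, and K57N overlapped neither of the other lines. K57N exceeded WT by 1.31 ± 0.15 (SE), or 2.49-fold (adjusted p = 0.00281), and F53S by 2.19-fold (adjusted p = 0.0101). The second of these calls was lost, with an adjusted p up to 0.0701, when F53S replicate 2 or 3 or K57N replicate 2 or 3 was left out. It was also lost with normexp, with a log2 difference of 0.96, and with no filter on dim probes (adjusted p = 0.13).

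CCL7 encodes a chemokine that attracts monocytes. Its signals were -4.81, -7.38 and -7.02 in WT cells, -5.66, -6.94 and -6.16 in F53S cells, and -1.50, -3.15 and -3.40 in K57N cells, so that all K57N arrays lay above all others. It was read on the K57N arrays and on none of the others. K57N was at least 4.15-fold above WT (adjusted p = 0.0433) and at least 4.23-fold above F53S (adjusted p = 0.0735, not called). Here too the adjusted p values are from limma on the signals as measured, not on the bounds. With normexp the log2 difference to WT was 1.02 (adjusted p = 0.687). The call against WT was lost without any 1 K57N array, without WT replicate 2 or 3 and without F53S replicate 2 or 3, with an adjusted p up to 0.164. The call against F53S was made without WT replicate 1 (adjusted p = 0.0258). CCL2, a relative of CCL7 that also attracts monocytes, was read on every array and differed between K57N and WT by a log2 value of 0.68 (adjusted p = 0.295).

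**Figure D2:**
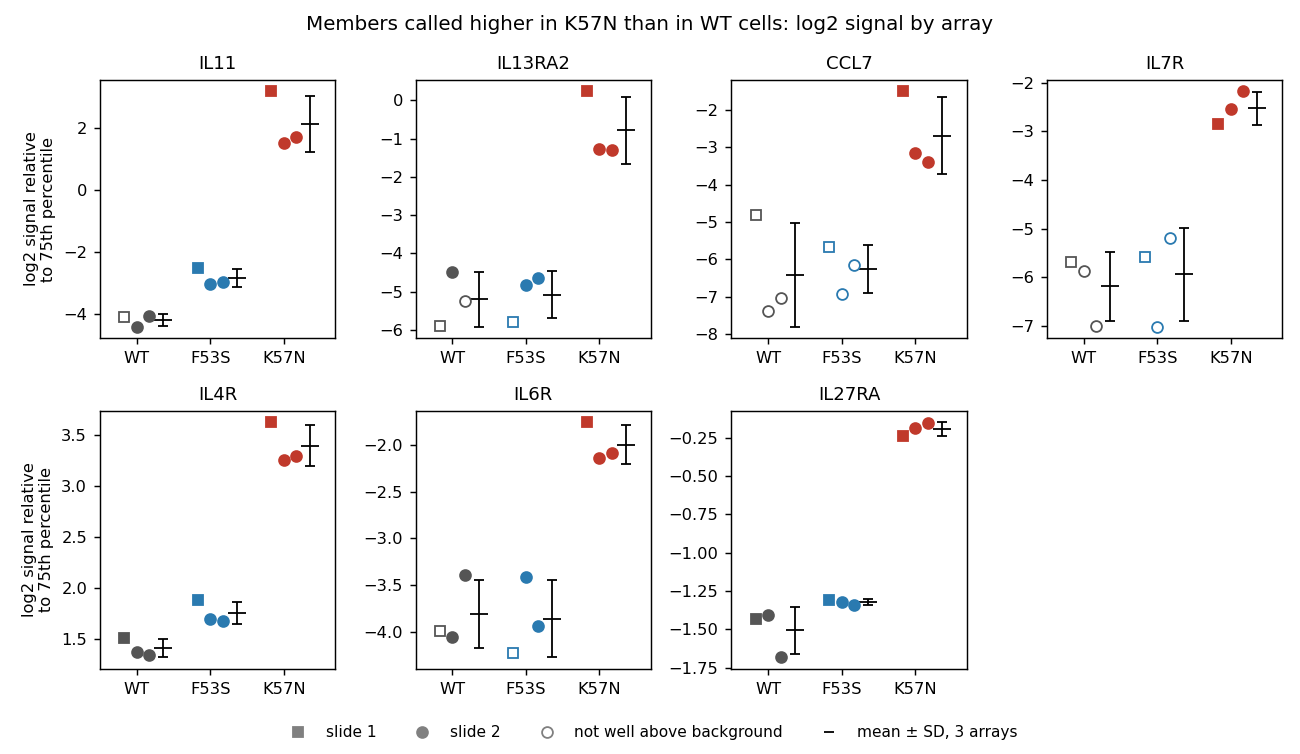
Log2 signal relative to the 75th percentile of the array (vertical axis, a separate scale for each gene) on the 3 arrays of each line, for the 7 members called higher in K57N cells against WT. Squares are slide 1, circles slide 2, open symbols arrays on which the probe was not well above background, and bars mean ± SD of 3 arrays; in all 7 panels the K57N arrays lie above the WT and F53S arrays.

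In the direct comparison of the mutants, 6 members were called higher in K57N cells against F53S and 0 lower (limma), against 0.965% and 0.244% of all genes tested. They were IL11, IL13RA2, IL7R, IL4R, IL6R and IL27RA, all of which were also called against WT. At an unadjusted p below 0.05, 10 members were higher and 2 lower in limma, and 9 and 2 in the methods' t-test. Over all 19274 genes these counts were 954 and 1027 in limma, and 1054 and 973 in the methods' t-test. Both comparisons share the K57N arrays. Between F53S and WT cells, 0 members were called in either direction by limma, against 0% of all genes in either direction, and 57 of the 58 lay within 2-fold. The exception was IL11, the only member with an unadjusted p below 0.05 in limma, and the methods' t-test gave 2 higher (IL11, IL4R) and 1 lower (ACKR3) at that level. Over all 19274 genes limma gave 123 higher and 52 lower, and the methods' t-test 157 and 119. The median log2 difference of members was 0.07, against 0.02 for all genes, and leaving out 1 array moved it between -0.148 and 0.234, below 0 without WT replicate 2, WT replicate 3 or F53S replicate 1.

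**Figure D3:**
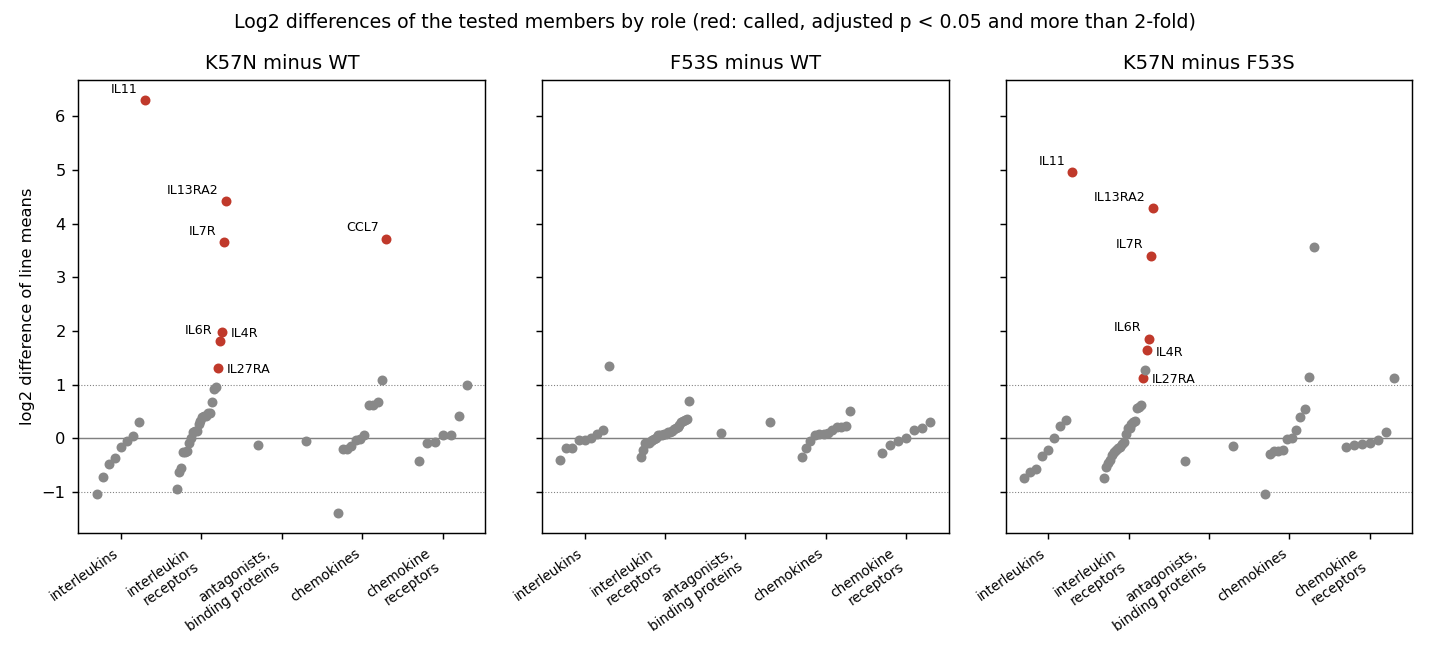
Log2 difference of line means (vertical axis) for the 56 tested members in 5 groups by role (horizontal axis), in the 3 comparisons; IL4I1 and IL21R-AS1 are not drawn. Red points, named, were called, and dotted lines mark 2-fold. The points of CCL7 and IL7R are set against lines in which no array read them; no point is red for F53S minus WT, where IL11 is the highest at 1.34.

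Pairing by replicate number could not be told from a shared slide, as described with the processing. With the replicate number as a block 4 more members were called: CXCL12, IL32, CXCR4 and IL1R1. The calls higher in K57N than in WT were then the same 7, against 2.55% of all genes, and 2 members were lower, against 1.83%. Between K57N and F53S cells, 9 members were higher, against 1.83%, and 1 was lower, against 1.02%. Between F53S and WT cells 0 members were called with the replicate block, against 0% of all genes in both directions. CCL7 was among the 9 (adjusted p = 0.00237 with the replicate block).

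CXCL12 encodes the chemokine that binds CXCR4 and ACKR3. Its signals were -0.75, -1.78 and -1.89 in WT cells, -1.23, -2.06 and -2.16 in F53S cells, and -2.61, -3.01 and -2.96 in K57N cells. All K57N arrays lay below all others, although the slide 1 array was the highest within each line. K57N was lower than WT by 2.62-fold, with an adjusted p of 0.1 without the block and of 0.00317 with the replicate block, and lower than F53S by 2.06-fold (adjusted p = 0.316 and 0.0137). A different CXCL12 probe that passed the filter gave a log2 difference to WT of -0.24, with adjusted p of 0.934 and 0.405. Of the other two probes, which did not pass the filter and were read on 2 WT arrays, 1 F53S array and no K57N array, one had K57N signals of -6.47, -6.57 and -7.03, all below its WT signals of -3.77, -5.04 and -4.64, and the other overlapped between lines.

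CXCR4, the receptor for CXCL12, went the other way. The signals were 2.10, 1.08 and 0.89 in WT cells, 1.77, 1.07 and 0.82 in F53S cells, and 2.48, 2.26 and 2.30 in K57N cells, which lay above all others. K57N exceeded F53S by a log2 value of 1.12, or 2.18-fold (adjusted p = 0.266 without the block and 0.0207 with the replicate block), and WT by 0.99, or 1.98-fold (adjusted p = 0.25 and 0.0217). The second difference passed the test with the block and fell just short of 2-fold, so it was not called. ACKR3, which takes up CXCL12 without signaling through G proteins, had a log2 difference K57N minus WT of -0.43 (adjusted p = 0.275 without the block and 0.0631 with it).

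IL32 encodes a cytokine that induces other inflammatory cytokines. Its signals were 0.54, -0.76 and -0.60 in WT cells, 0.26, -1.27 and -1.04 in F53S cells, and -0.57, -1.67 and -1.71 in K57N cells. The lines overlapped across slides, but within each slide K57N was the lowest. K57N was lower than WT by 2.06-fold (adjusted p = 0.475 without the block and 0.00242 with the replicate block). A different IL32 probe gave a log2 difference of -0.64, under 2-fold, with adjusted p of 0.75 and 0.0269.

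IL1R1 encodes the signaling receptor for IL-1. Its signals were -4.67, -4.17 and -4.58 in WT cells, -5.69, -4.42 and -4.37 in F53S cells, and -3.76, -3.79 and -3.10 in K57N cells, and the probe was read on 2, 2 and 3 arrays. K57N exceeded F53S by 2.42-fold (adjusted p = 0.225 without the block and 0.042 with the replicate block). The difference to WT was 0.92 on the log2 scale (adjusted p = 0.0766 with the block).

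CXCL2, which attracts neutrophils, was called only with the slide as a block, in which setting 8 members were higher in K57N cells against WT, against a background of 2.61% of all genes, and 2 were lower (CXCL12, IL32), against 1.9%. Its signals were -3.495, -2.996 and -2.975 in WT cells, -3.75, -3.17 and -2.71 in F53S cells, and -1.54, -2.35 and -2.30 in K57N cells. K57N lay above all others and exceeded WT by 2.13-fold, with an adjusted p of 0.16 without a block, 0.0491 with the slide block and 0.0732 with the replicate block. A different CXCL2 probe gave a log2 difference of 0.57. CXCL1, its close relative, differed by 0.63 (adjusted p = 0.689 without a block, 0.0135 with the slide block and 0.0269 with the replicate block), under 2-fold, and a different CXCL1 probe gave -0.019. The similarity of these genes may let their probes read each other, which was not tested.

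**Figure D4:**
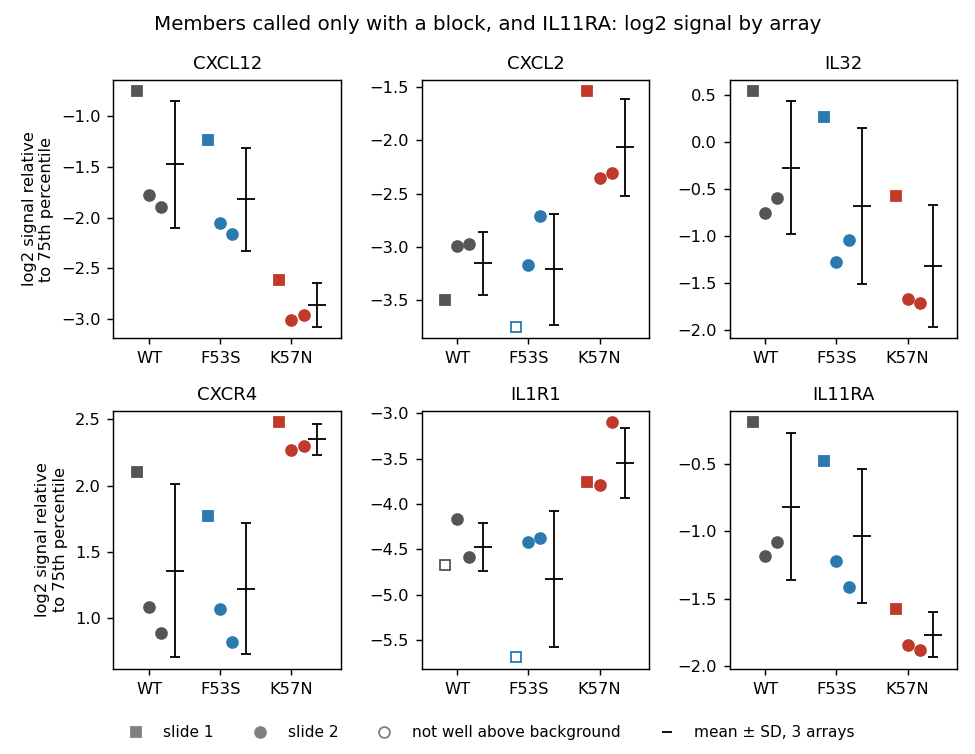
Log2 signal relative to the 75th percentile of the array (vertical axis, a separate scale for each gene) on the 3 arrays of each line for the 5 members called only with a block, and for IL11RA. Symbols are as for the called members, with squares for slide 1; for CXCL12, IL32 and IL11RA the K57N array is the lowest on each slide, and for CXCR4 and CXCL2 it is the highest.

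For the 7 called members the difference had the same sign within each slide. On slide 1, with 1 array per line and no test, K57N minus WT was 7.25 for IL11, 6.13 for IL13RA2, 2.22 for IL6R, 2.11 for IL4R and 1.19 for IL27RA, on the log2 scale. On slide 2, with 2 arrays per line, the values were 5.83, 3.56, 1.60, 1.92 and 1.38 in the same order. The WT array of slide 1 did not read IL11, IL13RA2 or IL6R, so that their slide 1 values rest wholly on a WT signal not well above background and are not firm sizes. WT replicate 3 did not read IL13RA2, so that its slide 2 value rests in part on such a signal. CCL7 and IL7R, which no WT array read, are not given a difference. Slide 2 alone called all 7, and also CXCR4 and IL2RB, higher in K57N than in WT cells, which makes 9 members against 2.52% of all genes. It called CXCL12 and IL32 lower, against 1.29%. For CXCR4 the difference was 1.30 on slide 2 and 0.37 on slide 1. IL2RB, a chain of the receptors for IL-2 and IL-15, had a log2 difference over all arrays of 0.95.

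**Figure D5:**
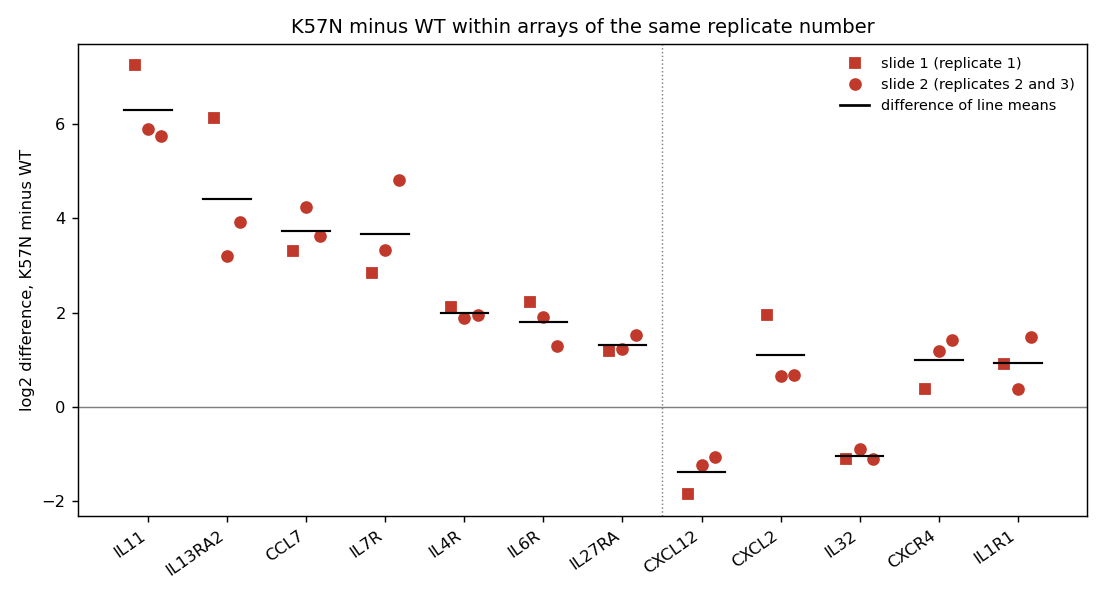
Log2 difference K57N minus WT (vertical axis) between arrays of the same replicate number, for the 7 called members and, right of the dotted line, the 5 members called only with a block. Squares are slide 1, circles slide 2 and lines the difference of line means. No WT array read CCL7 or IL7R, so their points are set against a signal not well above background, as are, among the called members, the slide 1 points of IL11, IL13RA2 and IL6R. Every point of the 7 called members lies above 0, and every point of CXCL12 and IL32 below 0.

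Other receptor chains, some of them partners of the products of the risen genes, were not called. IL6ST, which encodes gp130, was read on every array, and its 7 tested probes gave log2 differences K57N minus WT between 0.43 and 1.05, with adjusted p between 0.289 and 0.871. IL11RA, the receptor of IL-11, had signals of -0.19, -1.18 and -1.08 in WT cells, -0.47, -1.22 and -1.42 in F53S cells, and -1.58, -1.85 and -1.88 in K57N cells. All K57N arrays lay below all others, by 1.93-fold against WT (adjusted p = 0.229 without the block and 0.013 with the replicate block), short of the 2-fold a call required. IL1RAP, the partner of IL1R1, gave 0.47 (adjusted p = 0.608) and IL10RB, shared by the receptors for IL-10 and the lambda interferons, gave -0.23 (adjusted p = 0.824). IL17RD, also known as SEF and as an inhibitor of ERK signaling, gave -0.26 (adjusted p = 0.609).

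Over the 26 tested interleukin receptors the median log2 difference K57N minus WT was 0.35, against -0.05 for all genes tested, and 5 were called higher, where 1.51% of all genes were. Of these 26, 4 were not read on all WT arrays and passed the filter through K57N. Over the 22 receptors whose probe was read on all 9 arrays the median was 0.20, with 2 called. The -0.05 and the 1.51% are over all genes tested, and a median over all genes read on all 9 arrays is not given here. A fit to only the probes read on all 9 arrays called 159 genes higher. Over the 9 tested interleukins the median was -0.17, and it was -0.17 over the 5 of them read on all 9 arrays. For the 12 tested chemokines it was 0.02, and -0.09 over the 8 whose brightest tested probe was read on all 9 arrays. For the 7 tested chemokine receptors, all read on all 9 arrays, it was 0.06, with 0 called by limma. The differences between these groups were not tested. CCR7, a receptor that guides lymphocytes to lymph nodes, had signals between -4.25 and -2.87 in all lines and gave 0.07 (adjusted p = 0.992). IL4I1, an enzyme that breaks down phenylalanine, gave 0.70 (adjusted p = 0.741). Among interleukins that were read in WT cells but not on all K57N arrays, IL27 was read on 2 and IL37 on 1 of the K57N arrays, with log2 differences of -0.49 and -0.73 that were not called, and IL15 had no value on K57N replicate 3, where its spots were left out. IFNL2 and IFNL3 are nearly identical, and which of them the IFNL2 probe read was not tested.

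Genes of the same pathways without an interleukin or chemokine name were taken from fixed lists. CLCF1, a cytokine of the IL-6 family, rose in K57N cells against WT by 2.03 on the log2 scale (adjusted p = 0.000799). LIF, another cytokine of this family, gave 1.85 (adjusted p = 0.133), and with the slide as a block its adjusted p was 5.83e-05.

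Of 23 tested JAK, STAT and SOCS genes 0 were called in K57N against WT by limma, and 0 higher and 1 lower, JAK3, with the slide block. SOCS3, a feedback inhibitor that gp130 signaling induces, rose by 0.91 (adjusted p = 0.0144), short of 2-fold. Of 14 tested adaptors of the IL-1 and IL-17 receptors 0 were called with or without the slide block, and of 14 NF-kB genes 0 were called without it and 1 higher, RELB, with it (log2 difference 1.68, adjusted p = 2.22e-05 with the slide block and 0.0566 without it). Of 11 tested genes of the list of further chemokine system genes, which also holds the member ACKR3, 0 were called with or without the slide block. The medians of these 4 lists were 0.09, 0.14, 0.31 and -0.17, against -0.05 for all genes tested.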

How the data were processed

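Total RNA of the 3 lines was hybridized to 9 arrays of 62975 spots. The authors extracted spots with Agilent Feature Extraction 10.10.1.1, per the labels, and deposited for each array the processed signal, an intensity after background subtraction. A deposited table of log2 values differed from log2 of these intensities by 1 constant on each array, with a residue of at most 0.02 for at least 99.55% of probes, and served as an alternative. The number of arrays limits the precision.

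Outlier and non-uniform spots were left out, spots of a probe averaged on the log2 scale and the 75th percentile over non-control spots subtracted. Probe positions are those of the array annotation (hg19). Of the 204 member probes, 195 were named through their RefSeq accession. A gene was represented by its tested probe with the highest mean signal. R 4.3.3 with limma 3.58.1 fitted 1 mean per line over all 9 arrays. After subtraction of each line's mean, same-numbered arrays of different lines deviated together (lowest r 0.35, highest 0.88). Replicate 1 of each line shared slide 1, so these r values cannot tell pairing by number from a shared slide. The replicate block takes the numbers as pairs. The background for "at least" bounds was the lowest signal well above background on that array, and the bounds use the mean of 3 arrays. Code was tested on simulated data. Figures used Python 3.11.15 and matplotlib 3.10.9.

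Members and lists were chosen with earlier results of these data known. Named were the members called with or without a block, those read in 1 line and in no array of another, the 10 with the largest K57N minus WT difference, and 19 cytokines and receptors fixed by name. Alternatives were normexp background correction (offset 50), quantile normalization, other filters, the mean of a gene's probes, 2 lines at a time, blocks, slides apart, the deposited table, the methods' t-test and leaving out arrays. Unadjusted limma p was added after seeing the data. The count over the IL-6 family genes with other names is not reported here.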

Additional observations from a re-analysis of the deposited data

How the results depend on the processing

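Of the 7 members called higher in K57N cells against WT, 3 remained with normexp background correction (IL11, IL27RA, IL4R), 2 with only probes well above background on all 9 arrays (IL27RA, IL4R) and 3 with the methods' t-test after adjustment (IL11, IL27RA, IL4R). Over all genes, 146, 159 and 83 were called higher in these settings, in place of 292. The same 7 remained with quantile normalization, the mean of a gene's probes, the deposited log2 table and the replicate block. These settings called 320, 302, 318 and 491 over all genes. Leaving out 1 array gave 4 to 7 members, with 4 without K57N replicate 3, and 157 to 349 over all genes, with 157 without that array. In place of the 6 members called higher in K57N than in F53S cells, there were 2 with normexp, 3 with no filter, 2 with probes read on all 9 arrays, 1 with the adjusted t-test, 10 with unadjusted limma p, and 3 to 7 without 1 array (3 without K57N replicate 2 or 3). Over all genes these settings called 79, 63, 94, 24 and 389, and 68 to 198 without 1 array, in place of 186. Of members lower in K57N than in WT cells there were 0 in the fit without a block, 2 with the replicate block (paired analysis), the slide block and within slide 2, and 1 with the unadjusted t-test or limma p. Over all genes these gave 133, 352, 367, 249, 298 and 366. Against F53S there were 0, 1 with either block and 1 with either unadjusted p. The counts over all genes were 47, 196 and 207 with the replicate and slide block, and 163 and 230 with the unadjusted t-test and limma p. Higher in F53S than in WT cells was 1 member, IL11, with either unadjusted p, and 0 otherwise. Over all genes the unadjusted t-test gave 25 and unadjusted limma p 40. Leaving out 1 array gave 0 members for all of these counts.

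The median K57N minus WT was 0.06, against 0.201 within slide 2, -0.024 within slide 1, -0.04 with no filter on dim probes, and -0.032 to 0.278 without 1 array. The median F53S minus WT was -0.148 to 0.234 without 1 array, against 0.07 with all, and was below 0 without WT replicate 2, WT replicate 3 or F53S replicate 1. With the call "positive and significant" in place of well above background, 82 members were read in WT and 85 in K57N cells in place of 50 and 55. Normexp, which adds an offset, lowered the MAP2K1 signals to between 2.12 and 2.77 in the same order of lines. Dim members, with signals near the limit of background, had uncertain differences. Under the alternatives other than leaving out arrays the log2 difference K57N minus WT ranged from 2.16 to 4.69 for IL13RA2. The adjusted p ranged from 0.000407 to 0.687 for CCL7 and from 0.00324 to 0.31 for IL7R, which no WT array read. For brighter members the adjusted p also ranged widely, from 0.000899 to 0.966 for IL32 and from 0.00435 to 0.652 for CXCR4. No named difference that was called in any comparison changed sign under any alternative run.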
